A study of Rattus norvegicus with 3 samples.

Results

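The enzymes that build cholesterol and fatty acids from acetyl-CoA, together with the regulators that tie both pathways to sterol supply, were examined in rat osteoblast-like cells given polyphosphate, a linear polymer of inorganic phosphate. The 34 gene names chosen matched 35 genes on the array, because the old and present uses of the name Scd point to different genes, Scd and Scd2, and both were kept. Msmo1, listed under its former symbol Sc4mol, was matched by its present symbol. The genes fall into sterol synthesis (19 genes), sterol regulation (6 genes) and fatty acid synthesis (10 genes). Of the 35, 34 were measured on all 3 arrays, against 14503 genes measured on both the high dose and control arrays. Acacb, a mitochondrial-surface acetyl-CoA carboxylase, was not well above background on any array, with rescaled signals of 5.36, 4.84 and 4.75 at the high dose, low dose and control.

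ROS17/2.8 is an established osteoblast-like line from a rat osteosarcoma. Confluent cultures were kept in a medium for mineralization, with L-ascorbate phosphate and β-glycerophosphate in every group, the control included. The high dose cells received 1 mg/ml polyphosphate and the low dose cells 0.01 mg/ml, both for 24 h, and the control cells received none. Total RNA of each group was labelled with Cy3 and hybridised to 1 one-colour array, so nothing was replicated and no test or SD over samples is possible, and the group cannot be told apart from the position on the slide.

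In animal cells, acetyl units leave the mitochondrion as citrate and are condensed along the mevalonate route to squalene, which is closed into lanosterol and trimmed to cholesterol. The same acetyl-CoA is carboxylated to malonyl-CoA and polymerised to palmitate, which is then elongated and desaturated. SREBP-2 mainly drives transcription of the sterol branch and SREBP-1 that of the fatty acid branch; when membrane sterols are plentiful, INSIG proteins hold the SREBP escort protein SCAP in the endoplasmic reticulum. SREBPs usually act together with NF-Y, which binds CCAAT boxes, or with Sp1, which binds GC boxes.

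Promoter sequence was available for 28 of the 35 genes in the RefSeq windows of the GRCr8 assembly, which run from 250 bases before to 50 bases after an annotated start. With 2 starts for Srebf1, this gave 29 windows. No window was available for Pmvk, Fdft1, Sqle, Stard4, Acaca, Fasn and Elovl6. The 200 bases before the start are printed for 6 genes that were higher at the high dose and whose windows hold a CCAAT box, 5′ to 3′ on the strand of the gene, with CCAAT, or ATTGG where the box lies on the opposite strand, in capitals.
Idi1, chr17:66547525-66547724, minus strand: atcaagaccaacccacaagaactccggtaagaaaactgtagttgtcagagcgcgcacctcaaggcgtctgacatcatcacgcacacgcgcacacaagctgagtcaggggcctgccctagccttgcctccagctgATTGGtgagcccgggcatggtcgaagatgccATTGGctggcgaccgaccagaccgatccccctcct
Lss, chr20:12118231-12118430, minus strand: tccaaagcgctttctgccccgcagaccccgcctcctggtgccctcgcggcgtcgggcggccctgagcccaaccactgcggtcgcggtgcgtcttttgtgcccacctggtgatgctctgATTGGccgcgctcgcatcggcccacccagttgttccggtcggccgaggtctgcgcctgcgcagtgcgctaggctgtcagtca
Insig1, chr4:8057770-8057969, minus strand: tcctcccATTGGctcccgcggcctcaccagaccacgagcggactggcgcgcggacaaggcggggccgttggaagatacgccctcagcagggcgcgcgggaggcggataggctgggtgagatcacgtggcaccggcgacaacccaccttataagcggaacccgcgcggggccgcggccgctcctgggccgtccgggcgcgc
Insig2, chr13:35040099-35040298, minus strand: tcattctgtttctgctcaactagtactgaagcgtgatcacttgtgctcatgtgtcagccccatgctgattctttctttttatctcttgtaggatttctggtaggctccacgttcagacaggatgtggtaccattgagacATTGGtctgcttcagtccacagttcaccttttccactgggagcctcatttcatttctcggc
Scd2, chr1:253118177-253118376, plus strand: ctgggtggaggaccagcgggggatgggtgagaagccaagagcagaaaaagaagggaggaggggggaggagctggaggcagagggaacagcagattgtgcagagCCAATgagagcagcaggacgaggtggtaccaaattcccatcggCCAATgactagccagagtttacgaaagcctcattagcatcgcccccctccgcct
Acss2, chr3:164464503-164464702, plus strand: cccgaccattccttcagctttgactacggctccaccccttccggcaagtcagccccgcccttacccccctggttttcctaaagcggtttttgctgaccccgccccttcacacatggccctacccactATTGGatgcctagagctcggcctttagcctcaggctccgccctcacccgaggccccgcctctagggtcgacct
A CCAAT on either strand was found in 23 of the 29 windows (79.3%), against 37.5% of all 33469 windows and 37.8% of the 9474 windows of genes measured on the arrays. The branches were alike in this, with 13 of 16 windows of sterol synthesis (81.2%), 5 of 6 of sterol regulation and 5 of 7 of fatty acid synthesis (71.4%). The windows without a CCAAT include those of Cyp51, Dhcr7 and Scd, which were also higher at the high dose. The printed genes were picked because they hold the box, and whether it goes with a higher level was not tested. The GC box GGGCGG, on either strand, was in 22 of 29 windows (75.9%), against 33.1% of all windows and 61.3% of those of measured genes. The E-box CACGTG was in 3 of 29 (Insig1, Sc5d and Scap), against 9.36% of the windows of measured genes. The sterol regulatory element TCACNCCAC was in 0 of 29, on either strand, and in 1.15% of the windows of measured genes. No motif contains another. These are matches of letters in short windows, and a missing match says only that the letters are not in that window.

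Polyphosphate at 1 mg/ml went with levels above the control in 15 of 19 sterol synthesis genes and 4 of 6 sterol regulation genes. In the fatty acid branch this held for 5 of 9 measured genes, and over all measured genes for 47.9%. These counts disregard the spot error. The median ratios were 0.075 for sterol synthesis and 0.114 for fatty acid synthesis, so the counts do not order the branches. The differences were small: the called genes ran from 0.818 times the control level (Acaca) to 1.226 times (Pmvk). Sterol synthesis genes that differed were all higher (Pmvk, Idi1, Lss, Cyp51 and Dhcr7), as were the sterol sensors Insig1 and Insig2. In the fatty acid branch the desaturase genes Scd and Scd2 and the acetyl-CoA synthetase gene Acss2 were higher, whereas Acaca and Fasn, which carry out the committed steps to palmitate, were lower. Over all measured genes, 9.02% were called higher and 10.7% lower at 1 mg/ml. At 0.01 mg/ml only Pmvk and Stard4 of the 34 measured genes were called, both higher, beside 2.89% higher and 3.32% lower of all measured genes. Both of these calls were lost under another background correction.

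Values are log2 ratios after each array was divided by its 75th percentile of signal, and levels are signals rescaled to the control array, in arbitrary units. The ± after a ratio gives the spot error, estimated from the scatter of repeat spots within the arrays at a like level. It covers the spot measurement only, and neither labelling, culture nor any difference between cells. A gene was called where it was at least 1.1-fold apart (0.138 on the log2 scale) and more than 2 spot errors from 0. A level on a bulk array cannot tell fewer expressing cells from less RNA per cell.

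All 3 arrays were of like quality, with 55.9% to 57.2% of the 30367 probes well above background and 0 saturated spots. Over all measured genes the median log2 ratio was -0.009 for the high dose against the control, 0.001 for the low dose against the control and -0.009 for the high dose against the low. Of the osteoblast markers, 7 of 8 were measured: Alpl, Ibsp, Runx2, Sp7, Col1a1, Spp1 and Bglap. Of these, Bglap was dim, with signals of 49.91, 41.47 and 42.6 at the high dose, low dose and control. Phex was not well above background. Col1a1 was lower at the high dose (-0.23 ± 0.05) and Spp1 was higher (0.26 ± 0.02). Of 8 markers of adipocytes, a cell type rich in fatty acid synthesis, Fabp4 alone was measured on all arrays (signals 135.2, 140.3 and 131.9 at the high dose, low dose and control), and Adipoq, Plin1, Cebpa and Pparg were not well above background. Markers of other cell types were measured in part on the high dose and control arrays. These were 5 of 6 of muscle, 3 of 7 of chondrocytes, 3 of 6 of endothelium and 2 of 6 of leukocytes. Ckm, of muscle, had signals of 1749, 1787 and 1883 at the high dose, low dose and control.

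At the high dose, 10 of the 34 measured genes were called higher and 2 lower than in the control, that is 29.4% and 5.88%. Over all 14503 measured genes the shares were 9.02% higher and 10.7% lower. Most of these lipid genes are bright: 30 of the 34 lay at or above the median level, and of those 9 were higher and 1 lower, against 9.31% and 12.4% of the 7252 genes in that range. The median over the 34 was 0.089, and 10 of them were below 0. Normexp background correction, on signals without the within-array detrending, left Cyp51, Scd2 and Acaca called, with larger spot errors. Centring on spike-in probes, which put the median of all genes at 0.145, gave 24 higher and 0 lower. The 1.2-fold rule gave 1 higher and 1 lower. Shares over all genes are not given for these other settings, so nothing particular to the lipid genes is read from their counts. Both dose comparisons with the control share the same control array, so their values are given side by side and are not independent.

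**Figure D1:**
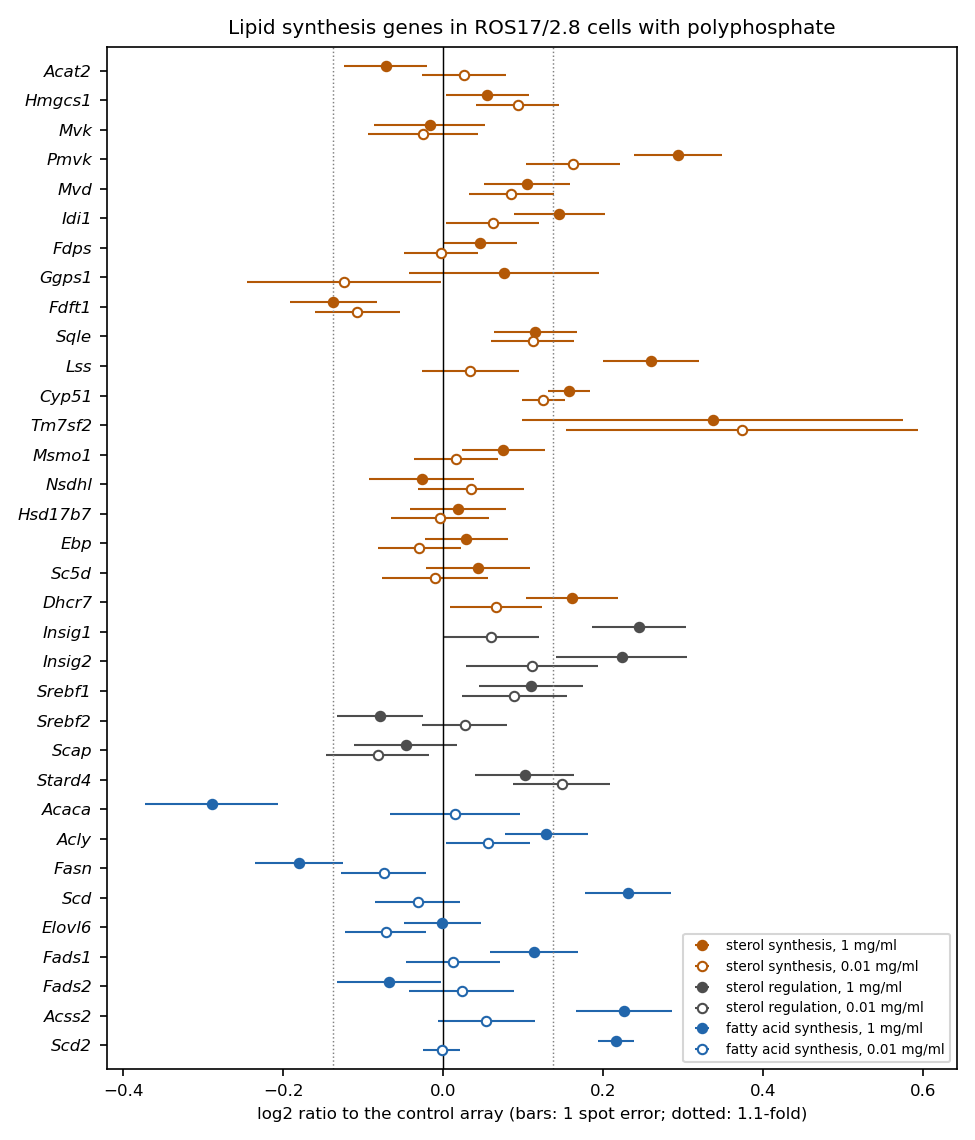
Log2 ratio to the control array of each measured gene (horizontal axis; bars, 1 spot error) at 1 mg/ml (filled) and 0.01 mg/ml (open) polyphosphate, with 1 array per group and dotted lines at 1.1-fold. Pmvk, Lss, Scd, Scd2 and Acss2 lie to the right at 1 mg/ml and Acaca and Fasn to the left, while the open points of the fatty acid genes stay within -0.074 and 0.056.

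The upper mevalonate route starts from acetyl-CoA. Acat2, the cytosolic thiolase that joins acetyl-CoA units, had signals of 28370, 30350 and 29820 at the high dose, low dose and control, a ratio of -0.07 ± 0.05 at the high dose. Its second probe was not well above background on any array and did not enter the value. Hmgcs1, the HMG-CoA synthase of this route, stood at 54450, 55930 and 52430 (0.06 ± 0.05 at the high dose, 0.09 ± 0.05 at the low). Neither gene was called at either dose.

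The kinases and decarboxylase that turn mevalonate into isoprene units did not move alike. Mvk, mevalonate kinase, was level on the 3 arrays (878.6, 873.5 and 888.9). Pmvk, phosphomevalonate kinase, the next enzyme, had signals of 4338 at the high dose, 3958 at the low dose and 3537 in the control. Its 2 spots were close on each array (4293 and 4382, 3974 and 3942, 3545 and 3530), and the 3 pairs did not overlap. The ratio was 0.29 ± 0.06 at 1 mg/ml and 0.16 ± 0.06 at 0.01 mg/ml, both called. It was the only gene of the 34 called at both doses, and the only one that was higher by the stricter rule of 1.2-fold at the high dose. Mvd, mevalonate diphosphate decarboxylase, stood at 8476, 8360 and 7880, which was short of 1.1-fold at either dose (0.105 ± 0.05 and 0.09 ± 0.05). Idi1, the isomerase of isopentenyl diphosphate, was higher at the high dose (7285, 6877 and 6588 at the high dose, low dose and control, 0.145 ± 0.06), just above the threshold. Centred on the median of the probes well above background, its ratio was 0.136 and the call was lost.

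At the branch point to prenyl groups and sterols there were no calls. Fdps, farnesyl diphosphate synthase and the target of nitrogen-containing bisphosphonate drugs, stood level (12630, 12210 and 12230). Ggps1, which makes geranylgeranyl diphosphate for protein prenylation, was dim (183.2, 159.4 and 173.8), and its ratios of 0.08 ± 0.12 and -0.12 ± 0.12 were within 2 spot errors. Fdft1, squalene synthase and the first enzyme committed to sterols, was the lowest of the sterol genes at the high dose, with 8018, 8187 and 8819. Its ratio of -0.137 ± 0.05 fell just short of 1.1-fold, and its control spots disagreed: one, at 8172, was near the high dose spots of 8043 and 7993, and the other was at 9517.

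The squalene and lanosterol steps included the 1 sterol synthesis gene called between the doses, Lss. Sqle, squalene monooxygenase, a rate-limiting enzyme of the pathway, was equally placed at both doses, at 75240 and 75110 against 69480 in the control (0.115 ± 0.05 and 0.11 ± 0.05, neither called). Lss, lanosterol synthase, which closes the sterol ring system, stood at 3085 at the high dose, 2638 at the low dose and 2577 in the control. Both high dose spots (3029 and 3143) were above every spot of the other 2 arrays, whose highest was 2787. The ratio was 0.26 ± 0.06 at 1 mg/ml and 0.03 ± 0.06 at 0.01 mg/ml, and the high dose was 0.23 ± 0.06 above the low dose, also called.

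Lanosterol is trimmed to cholesterol by demethylases, reductases and an isomerase. Cyp51, lanosterol 14-alpha-demethylase, was read by 10 spots and was higher at the high dose, at 7016 against 6295 (0.16 ± 0.03), while the low dose, at 6862, was just short of the threshold (0.125 ± 0.03). Tm7sf2, a sterol C14 reductase, had the highest ratio of the group at both doses (0.34 ± 0.24 and 0.37 ± 0.22), but its signals of 58.13, 59.63 and 46.02 were near the lower end of the range and the ratios lay within 2 spot errors. Dhcr7, the reductase that converts 7-dehydrocholesterol, the precursor of vitamin D, to cholesterol, was higher at the high dose (6345, 5941 and 5674 at the high dose, low dose and control, 0.16 ± 0.06). The remaining enzymes of this stretch were not called. Msmo1, the C4 methyl oxidase, stood at 41580, 39930 and 39480, and Nsdhl, the C4 decarboxylating dehydrogenase, at 925.5, 966 and 943.1. Hsd17b7, the C3 ketoreductase, Ebp, the sterol isomerase, and Sc5d, the C5 desaturase, had high dose ratios of 0.02, 0.03 and 0.04, each within its spot error.

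**Figure D2:**
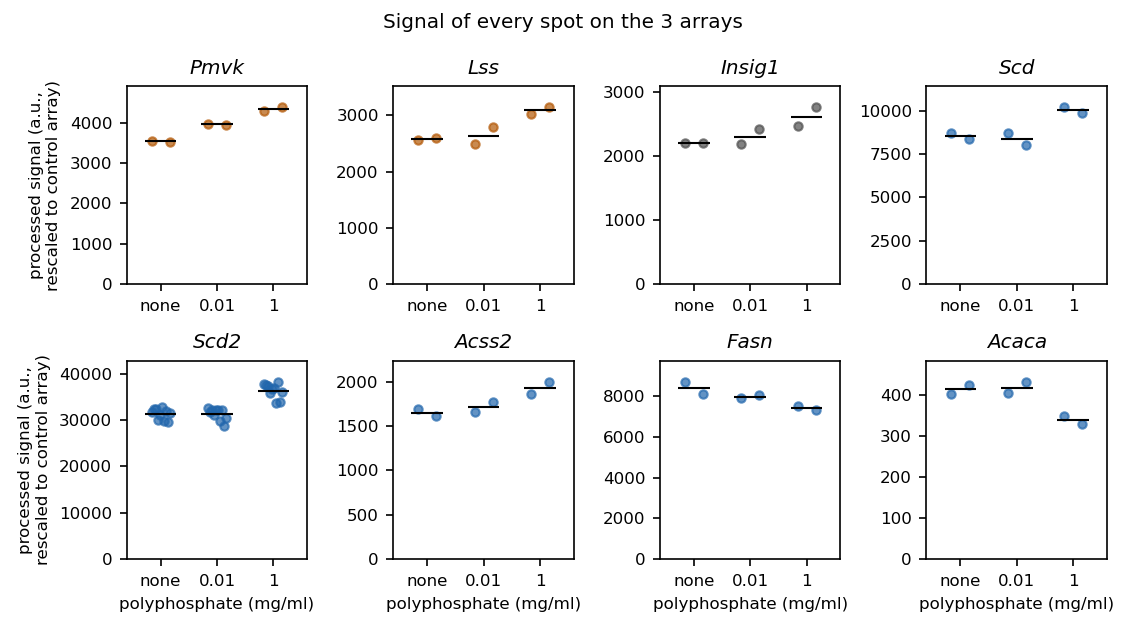
Signal of every spot (arbitrary units, rescaled to the control array, axes from 0) for 8 genes against polyphosphate in mg/ml, with a line at the mean of log2 signals. Spots of Pmvk, Lss, Insig1, Scd, Scd2 and Acss2 are all higher at 1 mg/ml than in the control, and those of Fasn and Acaca are all lower.

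Among the regulators, both Insig genes were higher at the high dose. Insig1, itself a target of SREBPs, had signals of 2610, 2297 and 2203 at the high dose, low dose and control. The high dose spots (2471 and 2756) lay above all others, although they differed between themselves more than the control spots did (2204 and 2202). The ratio was 0.245 ± 0.06 at 1 mg/ml and 0.06 ± 0.06 at 0.01 mg/ml, with the high dose 0.18 ± 0.06 above the low dose, also called. Insig2, the less sterol-dependent relative, was read by 2 probes that did not behave alike. At the high dose both were above the control (0.25 and 0.19), which gave 0.22 ± 0.08, called. At the low dose one stood at 0.28 and the other at -0.06, and the mean of 0.11 ± 0.08 was not called.

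The genes of the transcription factors themselves were not called. Srebf2, which encodes SREBP-2, stood at 8395, 9034 and 8870 (-0.08 ± 0.05 at the high dose), and Srebf1, which encodes SREBP-1, at 1041, 1027 and 965.1 (0.11 ± 0.07). Scap, the escort protein, stood at 1361, 1329 and 1407 and was not called either. Stard4, a cytosolic carrier of cholesterol, was read by 2 probes that pointed the same way, with 0.10 ± 0.06 at 1 mg/ml and 0.15 ± 0.06 at 0.01 mg/ml. The low dose value was called and is the only other call at that dose beside Pmvk. It was not called with its brighter probe alone, which gave 0.122.

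In the fatty acid branch, Acss2 of the acetyl-CoA supply was higher at the high dose, and the genes that make palmitate were lower. Acly, ATP citrate lyase, which releases acetyl-CoA from citrate, stood at 23670, 22500 and 21640 (0.13 ± 0.05 at the high dose, short of 1.1-fold). Acss2, which makes acetyl-CoA from free acetate, had signals of 1928 at the high dose, 1711 at the low dose and 1648 in the control, and both high dose spots (1863 and 1995) were above the rest. The ratio was 0.23 ± 0.06 at 1 mg/ml and 0.05 ± 0.06 at 0.01 mg/ml, and 0.17 ± 0.06 between the doses, so the high dose was called against both other arrays.

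Acaca, the cytosolic acetyl-CoA carboxylase that makes malonyl-CoA, had the lowest ratio of the 34. Its signals were 339.5 at the high dose, 419.4 at the low dose and 414.9 in the control, and the high dose spots (349.1 and 330.1) lay below all spots of the other arrays, the lowest of which was 404.6. The ratio was -0.29 ± 0.08 at 1 mg/ml and 0.02 ± 0.08 at 0.01 mg/ml, with -0.305 ± 0.08 between the doses. It was the only gene called lower by the 1.2-fold rule. Fasn, fatty acid synthase, was lower at the high dose too, at 7410 against 8392 (-0.18 ± 0.06). Its low dose level of 7970 lay between them and was not called (-0.07 ± 0.05). Centring on spike-in probes instead put the median of all genes at 0.145, with Acaca and Fasn at -0.14 and -0.03 at the high dose, neither of them called.

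The desaturases, which put the double bond into stearate and palmitate, were both higher at the high dose than on either other array. Scd had signals of 10010, 8348 and 8535 at the high dose, low dose and control, with high dose spots of 10190 and 9841 against at most 8710 elsewhere. The ratio was 0.23 ± 0.05 at 1 mg/ml, -0.03 ± 0.05 at 0.01 mg/ml and 0.26 ± 0.05 between the doses. Scd2, read by 10 spots, had 36390, 31280 and 31320, and every high dose spot (33750 to 38230) was above every control spot (29670 to 32800). The ratio was 0.22 ± 0.02 at 1 mg/ml, -0.00 ± 0.02 at 0.01 mg/ml and 0.22 ± 0.02 between the doses. The probe positions, chr1:249458860-249458919 for Scd and chr1:249370837-249370896 for Scd2 in the rn4 build, show that the genes are neighbours as well as close relatives, and whether transcripts of one bind the probe of the other was not tested.

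The later enzymes of the branch were not called. Elovl6, which elongates palmitate to stearate, stood at 1262, 1201 and 1263. Fads1 and Fads2, the desaturases of polyunsaturated fatty acids, pointed apart at the high dose, at 4369, 4071 and 4036 for Fads1 (0.11 ± 0.06) and 1107, 1180 and 1161 for Fads2 (-0.07 ± 0.07).

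Set side by side at the high dose, the branches had similar medians, and ratios varied more among fatty acid than among sterol synthesis genes. Sterol synthesis had a median of 0.075, with the middle genes from 0.024 to 0.151, and 5 of 19 genes were higher and 0 lower. Sterol regulation had a median of 0.106, with 2 of 6 higher and 0 lower. Fatty acid synthesis had a median of 0.114, with the middle genes from -0.068 to 0.216, and 3 of 9 measured genes were higher and 2 lower. The shares over all genes, 9.02% higher and 10.7% lower, are the background of these counts, which are small in each group. The SD among genes was 0.121 in sterol synthesis and 0.189 in fatty acid synthesis, where the root mean square spot errors were 0.080 and 0.057. As a background, the ratios of the 14503 genes scattered with an SD of 0.201, or 0.13 when only bright genes were taken. The branches were not tested against these values or each other. With 19 and 9 genes, the wider scatter is not read as a trait of the fatty acid branch. The sterol median was thus lower than the fatty acid median by a difference of -0.04, but leaving out Scd2, the gene added through the older name, turned this to 0.018, so the medians do not order the branches.

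**Figure D3:**
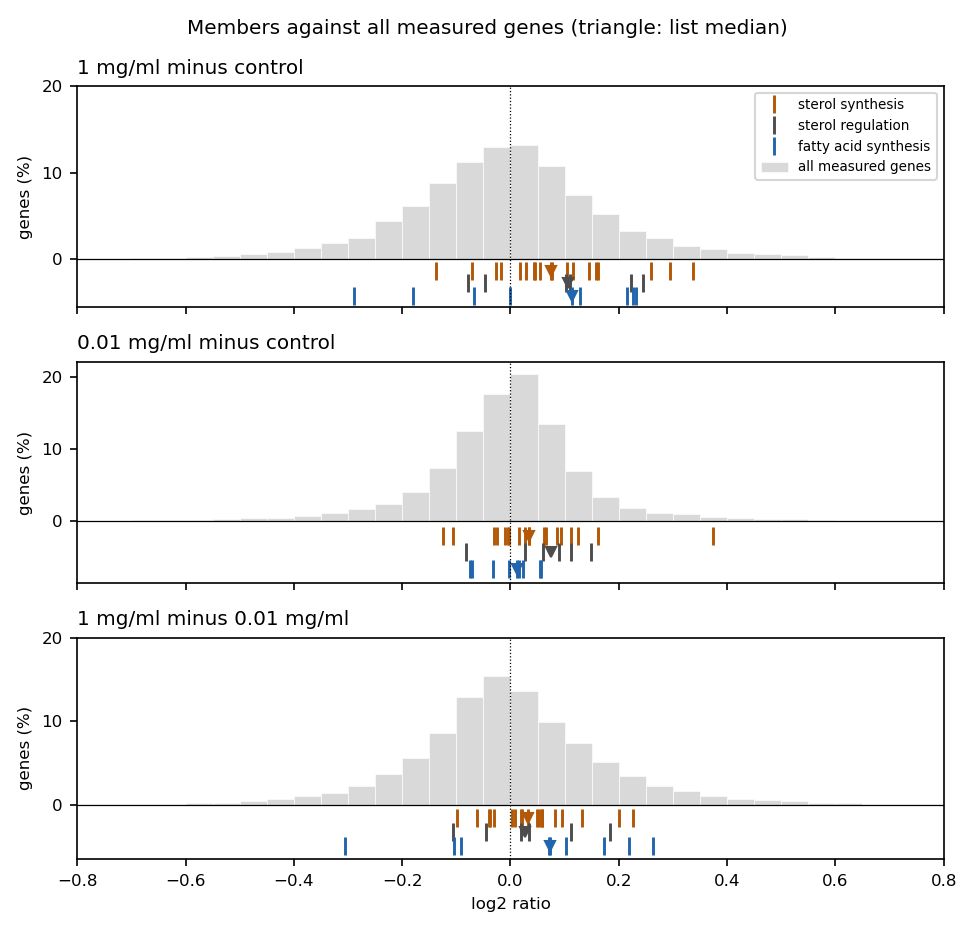
Share of all measured genes (grey, percent) by log2 ratio in bins, for the 3 comparisons, with each lipid gene as a tick below the histogram and a triangle at each group's median. At 1 mg/ml the sterol ticks lie between -0.137 and 0.337 and the fatty acid ticks between -0.289 and 0.231.

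At the low dose the fatty acid branch had no calls and varied less than its spot errors. Its genes ran from -0.074 (Fasn) to 0.056 (Acly), with an SD of 0.048, less than the root mean square spot error of 0.057, and 0 of 9 were called. Sterol synthesis had a median of 0.034 and an SD of 0.108, beside a root mean square spot error of 0.078, with Pmvk called. Its highest ratio was that of the dim Tm7sf2 (0.37 ± 0.22). Sterol regulation had a median of 0.075, with Stard4 called. Over the 34 genes, 2 were higher and 0 lower, against 2.89% higher and 3.32% lower of all 14629 genes. Both calls were lost under normexp background correction and at 1.2-fold, and centring on spike-in probes, which put the median of all genes at 0.159, gave 26 higher. Shares over all genes are not given for these settings, and the counts are not read as particular to the lipid genes. Of the 30 at or above the median level, 2 were higher and 0 lower, against 3.13% and 2.61%. The median over the 34 was 0.026, and 12 were below 0.

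Against the low dose, the high dose had 5 of 34 genes higher (Lss, Insig1, Scd, Scd2 and Acss2) and 1 lower (Acaca). Over all 14488 genes the shares were 7.98% higher and 8.17% lower. All 5 higher genes were among the 30 at or above the median level, where the shares over all genes were 7.59% and 10.3%. The medians were 0.032 for sterol synthesis, 0.027 for sterol regulation and 0.073 for fatty acid synthesis. Levels ran from control to low dose to high dose in 14 of the 34 genes, 8 of them in sterol synthesis, 3 in regulation and 3 in fatty acid synthesis, counted without regard to the spot error. The other orders held 7, 5, 3, 3 and 2 genes. The share of all measured genes in each order is not given, so the count is not read as a trait of the lipid genes.

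In the neighbouring lipid pathways, each group had between 0 and 3 calls in a direction at the high dose, beside 9.02% higher and 10.7% lower over all genes, and nothing particular to a group is read from such counts. Of 12 measured genes of prenyl, dolichol and ubiquinone synthesis, 1 was higher and 1 lower: Rabggta, a Rab geranylgeranyl transferase subunit (0.19 ± 0.08), and Pdss2, which builds the ubiquinone tail (-0.30 ± 0.14). Among 13 genes of sterol efflux, esterification and transport, Soat1, which esterifies cholesterol for storage, was higher (0.34 ± 0.13) and Lcat, the plasma acyltransferase, lower (-0.19 ± 0.09), and the highest value, Cyp27a1, a sterol hydroxylase, at 0.38 ± 0.24, was not called. Of 11 genes listed under SREBP processing and sterol-regulated degradation, Mbtps2, the site-2 protease, at 0.43 ± 0.20, and Erlin1 at 0.33 ± 0.08 were higher. Mbtps2 was dim, with signals of 62.42, 55.17 and 46.35 at the high dose, low dose and control. The lowest, Mbtps1, the site-1 protease, at -0.11 ± 0.06, was not called. The list also holds Tecr, a fatty acid elongation enzyme, which was not called either. Erlin1, an endoplasmic reticulum protein, was also higher at the low dose (0.18 ± 0.08).

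Of 16 genes that supply or handle acyl chains, 2 were higher, with Mid1ip1, an activator of acetyl-CoA carboxylase, at 0.20 ± 0.09 as the highest, and 3 lower, with Aacs, acetoacetyl-CoA synthetase, at -0.24 ± 0.07 as the lowest. Aacs was lower at the low dose as well (-0.30 ± 0.07). Of 14 genes of glycerolipid synthesis and lipid droplets, 1 was higher and 2 lower. G0s2, an inhibitor of lipolysis, was the highest, with signals of 81.97, 45.74 and 39.52 from high dose to control, and Agpat1, an acyltransferase of phosphatidic acid synthesis, the lowest (-0.21 ± 0.06). Of 18 genes of fatty acid oxidation, 2 were higher, with Ppard, a nuclear receptor, at 0.69 ± 0.31 from a single spot, and 2 lower. Cpt1a, which admits long-chain fatty acids to the mitochondrion, was lower at both doses, at 203.4 and 234.4 against 268.7 in the control (-0.40 ± 0.05 and -0.20 ± 0.05), read by 9 spots. The medians of these 6 groups ran from -0.083 to 0.035, beside 0.075 for sterol synthesis and 0.114 for fatty acid synthesis.

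**Figure D4:**
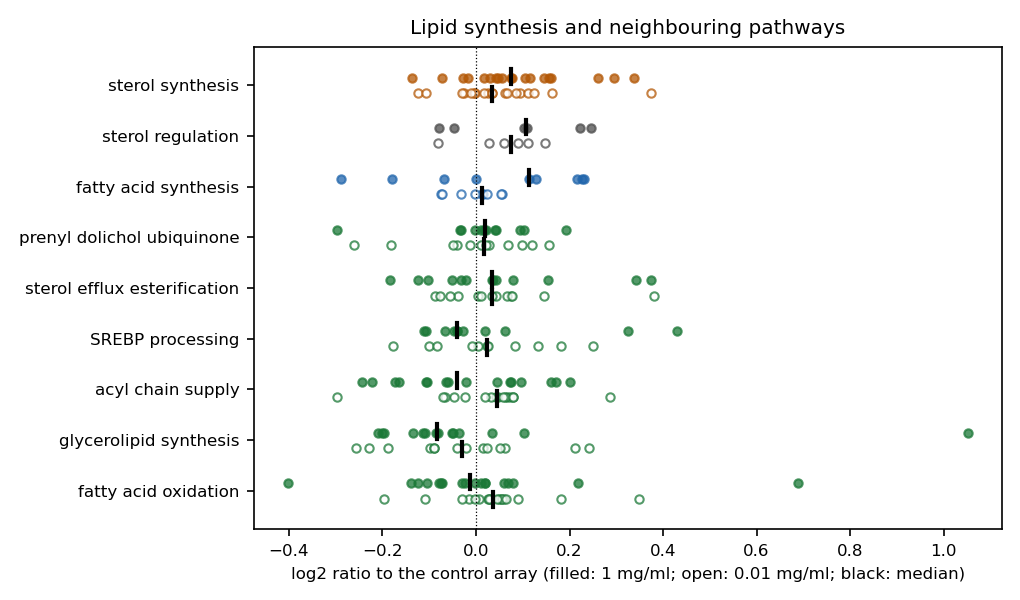
Log2 ratio to the control array of each measured gene in the lipid synthesis groups and 6 neighbouring groups, at 1 mg/ml (filled) and 0.01 mg/ml (open), with a black bar at each median. The medians at 1 mg/ml are 0.075, 0.106 and 0.114 in the 3 lipid synthesis groups and -0.083 to 0.035 in the neighbours.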

How the data were processed

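The authors deposited 1 scanner file per array. Per the file headers, the software was Agilent Feature Extraction 10.7.3.1. Per the file headers, its processed signal is a linear intensity, background-subtracted and detrended, with no normalization between arrays. The deposited series table was found to hold a linear ratio, the processed signal over 1 constant per array (822.7, 849.0 and 822.8, with column medians of 0.0734, 0.0731 and 0.0737 at the high dose, low dose and control); its making was not stated in the labels, and it served as an alternative. Other deposited columns are 0 or 1 flags for spots.

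From these files, processed signals were divided by the 75th percentile of the array's 58717 non-control spots and taken to log2. Outlier spots (352, 368 and 426 on the high dose, low dose and control arrays) were left out unless all spots of a probe were flagged. A probe counted as measured where at least 50% of its spots were well above background on both arrays compared, and a gene was the mean over measured probes. Spot errors were pooled in 20 bins of level. Symbols were updated through RefSeq accessions for 2720 of 18438 matched probes. With 1 array per group no test was made, and the number of arrays limits the precision. All members were named, with the highest and lowest gene at the high dose of each neighbouring list. Others named from those lists were picked from the called genes after their values were seen. The members and lists were chosen with earlier results of these data known. Alternatives were 9 other processing settings and 2 other call rules. Normexp background correction used limma 3.58.1 in R 4.3.3 with an offset of 50; the rest used Python 3.11.15, numpy 2.4.6 and pandas 2.3.3.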

Additional observations from a re-analysis of the deposited data

How the results depend on the processing

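Each group is 1 RNA sample, so the values describe these 3 samples only. No paired analysis was possible because each group holds 1 array. Normexp background correction, run on signals that are not detrended, left 2 genes higher and 1 lower at the high dose, 0 higher at the low dose, and 1 higher and 0 lower between the doses. The ratios of the called genes moved by at most 0.064 and kept their sign, while the median spot error of the members went from 0.056 to 0.145 at the high dose. Centring on 8 spike-in probes moved the median of all genes to 0.145 and 0.159 against the control at 1 and 0.01 mg/ml. The medians of sterol synthesis, sterol regulation and fatty acid synthesis were then 0.229, 0.260 and 0.268 at 1 mg/ml and 0.193, 0.233 and 0.171 at 0.01 mg/ml, with 24 higher and 0 lower, and 26 higher, respectively; Acaca and Fasn stayed below 0 (-0.14 and -0.03) but were not called. At 1.2-fold, 1 gene was higher and 1 lower at the high dose, 0 were higher at the low dose, and between the doses 0 were higher and 1, Acaca, was lower. Counts at these other settings have no share over all genes beside them and are not read as particular to the lipid genes. Strict spot filtering left 1 higher at the low dose. With the brightest probe of each gene, the sterol regulation median between the doses turned to -0.001. Without Scd2, chosen after the data were seen, the fatty acid median at the high dose was 0.057 and the difference between branches 0.018. The medians not given here kept their direction, though those near 0 moved in proportion: the low dose fatty acid median, 0.012, ran from 0.001 (quantile normalization) to 0.025 (series table), and the branch difference at the high dose reached -0.065. Scd2 was called at the high dose under 9 of 9 processing settings, but not at 1.2-fold. The cause of these changes was not tested beyond the values given.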
